A study of Mus musculus with 4 samples.

Results

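The genes described here are 9 components of TGF-beta and BMP signalling: the ligand genes Tgfb1, Tgfb2, Bmp2 and Bmp4, the receptor genes Tgfbr1, Tgfbr2, Tgfbr3 and Bmpr1a, and the signal transducer gene Smad3. They were taken as every probe set whose platform gene symbol is 1 of the 9, which gave 25 of the 45037 probe sets that are not array controls, and 9 of 18193 genes with a named probe set. All 9 genes had at least 1 probe set. The samples were 4 Affymetrix arrays, 2 per mouse line, of basal cells taken by flow sorting from tail epidermis of the CD-1 strain. Mice of both lines carried the RosaYFP reporter, which Cre activates. In the first line, K14CREER, tamoxifen-inducible Cre was driven by the keratin 14 promoter, active in basal keratinocytes, and the dose was 1 ug. In the second, InvCREER, it was driven by the involucrin promoter, active in committed keratinocytes, and the dose was 10 ug. The titles place the samples 3.5 days after induction and the treatment protocol 4 days. Living YFP-positive cells with high alpha6 integrin and no CD34 on the surface were sorted from both lines. Dose and line cannot be told apart, and no label ties an array to a mouse, so that the p-values measure the spread between samples, which may be technical. InvCREER 1 stood apart in sex-linked genes: Xist was at 12.56 there and between 5.44 and 8.26 elsewhere, and the Y-linked Eif2s3y at 7.49 against 9.89 to 10.25. Labels give no sex, and values without InvCREER 1 are given after the 9 genes.

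TGF-beta and BMP ligands are secreted dimers that bring together type I and type II receptor kinases on the cell surface. The type I receptor then phosphorylates receptor-regulated Smad proteins, which enter the nucleus with Smad4 and change transcription. In epidermis TGF-beta signalling is best known as a brake on keratinocyte proliferation, and BMP signalling for its part in differentiation and in holding follicle stem cells quiescent.

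In basal cells marked by InvCREER the mean level of all 9 genes lay below that of cells marked by K14CREER on the brightest probe set of each gene, and for 8 of the 9 both InvCREER arrays were below both K14CREER arrays. Tgfbr3 lay 2.56-fold lower, Bmp4 2.45-fold, Tgfb1 2.04-fold, Bmp2 2.03-fold and Tgfbr2 2.01-fold. The Tgfb1 mean in InvCREER, 5.38, was under the intensity filter for testing, the median probe set mean of 5.42. Tgfb1 was thus tested through its K14CREER values, and its fold and its place in these counts support nothing. Bmpr1a was at nearly the same level in both lines. None of these differences passed the test, which was limma with Benjamini-Hochberg adjustment over 22519 probe sets and a threshold of 0.05. Over all tested probe sets 0.959% were called. Over the 11270 genes tested, each on its brightest probe set, 51.8% had a lower mean in InvCREER and 24.1% lay lower with no overlap. The 9 genes were chosen with earlier results of these data known, so that their counts beside these shares are descriptions. With 2 arrays against 2 an exact permutation test cannot give a 2-sided p under 0.333.

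Promoter sequence shows how unlike the start regions of these genes are. RefSeq start regions on GRCm38.p6, from 250 bases before to 50 bases after the start, were matched for 7 of the 9 genes, as 8 sequences. The 3 with the largest difference between the lines (Bmp4, Tgfb1 and Tgfbr2) are shown with Bmpr1a, which had the smallest. Capitals mark matches on either strand to 4 motifs: the GC box GGGCGG bound by Sp1, the Smad motif CAGAC, the TATA box TATAAA and the GC-rich BMP Smad motif GGCGCC. No base of these 4 sequences lay in more than 1 motif match.
Bmp4 (chr14:46390620-46390919, minus strand): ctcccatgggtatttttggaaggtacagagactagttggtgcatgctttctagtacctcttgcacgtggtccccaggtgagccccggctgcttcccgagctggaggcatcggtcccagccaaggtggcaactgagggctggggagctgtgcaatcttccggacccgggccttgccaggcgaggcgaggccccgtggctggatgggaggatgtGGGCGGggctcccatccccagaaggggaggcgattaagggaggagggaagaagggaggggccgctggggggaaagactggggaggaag
Tgfb1 (chr7:25686752-25687051, plus strand): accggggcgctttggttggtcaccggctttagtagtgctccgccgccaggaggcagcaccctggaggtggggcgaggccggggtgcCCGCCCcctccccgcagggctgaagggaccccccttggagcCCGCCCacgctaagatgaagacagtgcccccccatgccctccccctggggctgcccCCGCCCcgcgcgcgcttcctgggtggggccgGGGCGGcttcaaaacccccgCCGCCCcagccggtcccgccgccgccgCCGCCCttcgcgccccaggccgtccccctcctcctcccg
Tgfbr2 (chr9:116175314-116175613, minus strand): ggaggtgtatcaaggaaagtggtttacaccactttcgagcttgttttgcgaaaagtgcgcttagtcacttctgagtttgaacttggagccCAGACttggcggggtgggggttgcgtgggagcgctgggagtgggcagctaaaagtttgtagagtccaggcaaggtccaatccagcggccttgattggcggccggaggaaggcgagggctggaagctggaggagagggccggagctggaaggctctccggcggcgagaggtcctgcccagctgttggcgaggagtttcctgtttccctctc
Bmpr1a (chr14:34502497-34502796, minus strand): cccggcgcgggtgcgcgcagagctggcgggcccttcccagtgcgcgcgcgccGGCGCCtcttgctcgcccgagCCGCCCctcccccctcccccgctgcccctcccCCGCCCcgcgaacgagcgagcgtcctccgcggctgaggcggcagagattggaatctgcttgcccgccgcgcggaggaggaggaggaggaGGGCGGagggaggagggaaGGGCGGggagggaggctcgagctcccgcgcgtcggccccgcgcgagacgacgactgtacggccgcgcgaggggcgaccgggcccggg

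The Tgfb1 region held 6 GC boxes, the Bmpr1a region 4 and the Bmp4 region 1, while the Tgfbr2 region held 1 Smad motif and no GC box. GC content was 77.0% for Tgfb1, 79.3% for Bmpr1a, 64.0% for Bmp4 and 59.0% for Tgfbr2, against a median of 52.7% over 32851 start regions. A GC box was present in 5 of the 8 sequences and in 35.7% of all start regions. The Smad motif was present in 3 of the 8 and in 49.6% of all, the TATA box in 1 of the 8 (Tgfb2) and in 13.6% of all, and GGCGCC in 2 of the 8 (Bmpr1a and the upstream start of Tgfbr1) and in 11.9% of all. These matches describe the letters of the windows only.

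Of the ligand genes, Bmp4 had the largest difference. Bmp4 encodes a ligand that signals through Bmpr1a. Its log2 values were 8.18 and 8.54 on K14CREER 1 and 2, and 7.02 and 7.11 on InvCREER 1 and 2. Both InvCREER arrays lay more than 1 log2 unit below both K14CREER arrays, a gap wider than the spread within either line. The means were 8.36 ± 0.26 and 7.07 ± 0.06 (SD, n = 2 per line), a difference of -1.29 (SE 0.24, limma adjusted p = 0.0730). Of the 22519 tested probe sets 0.928% had a difference as low or lower. Bmp2, the closest relative of Bmp4 among the 9, was at 8.58 and 8.73 in K14CREER and at 7.54 and 7.73 in InvCREER. The lines did not overlap, and the arrays of a line differed by 0.15 in K14CREER and 0.19 in InvCREER. The Bmp2 difference was -1.02 (SE 0.22, limma adjusted p = 0.102).

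Tgfb1 encodes the prototype TGF-beta ligand, which is secreted in a latent complex. It was at 6.44 and 6.38 in K14CREER and at 5.35 and 5.41 in InvCREER. The K14CREER arrays lay about 1 log2 unit above the intensity filter and the InvCREER arrays at or just below it, the filter being the median probe set mean of 5.42. The Tgfb1 difference was -1.03 (SE 0.21, limma adjusted p = 0.0922), and the probe set passed the filter through its K14CREER values. The second Tgfb1 probe set had a mean under the filter and was not tested. It was at 5.31 and 5.27 in K14CREER and at 4.91 and 5.30 in InvCREER, so that the lines overlapped.

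Tgfb2 encodes the second TGF-beta ligand among the 9, and 3 of its 4 probe sets were tested. The brightest was at 8.06 and 7.98 in K14CREER and at 7.38 and 7.42 in InvCREER, a difference of -0.62 (SE 0.22, limma adjusted p = 0.272). The other tested probe sets had differences of -0.50 and -0.65. All 4 Tgfb2 probe sets, including the 1 under the filter, had both InvCREER arrays below both K14CREER arrays. Tgfb2 was thus the gene with the most probe sets lying the same way, though with a smaller difference than the other ligand genes.

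**Figure D1:**
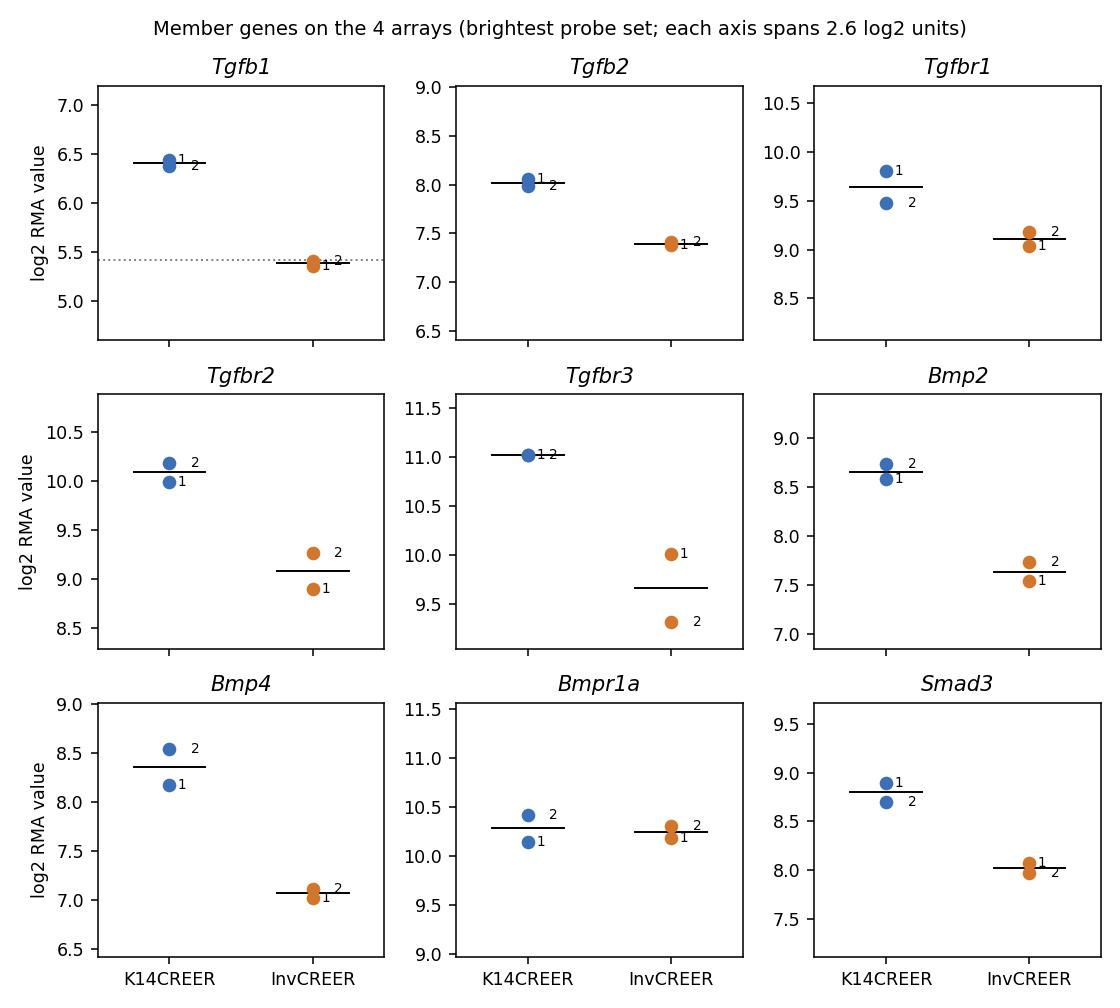
Log2 RMA value of each of the 9 genes on its brightest probe set (y axis) in the K14CREER and InvCREER arrays (x axis; points are arrays, marked 1 and 2, and bars are line means; the dotted line is the intensity filter at 5.42). For all genes but Bmpr1a both InvCREER points lie below both K14CREER points, and the Tgfbr3 InvCREER points, at 10.01 and 9.32, lie farthest apart.

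Among the receptor genes the co-receptor gene came first. Tgfbr3 encodes betaglycan, a co-receptor without kinase activity that presents TGF-beta ligands to Tgfbr2. It was at 11.02 on both K14CREER arrays, and at 10.01 on InvCREER 1 and 9.32 on InvCREER 2. The K14CREER arrays were nearly equal whereas the InvCREER arrays were 0.69 log2 units apart. The difference was -1.36 (SE 0.25, limma adjusted p = 0.0689), and 0.804% of tested probe sets lay as low or lower. It was -1.70 without InvCREER 1, -1.01 without InvCREER 2, and -1.36 without K14CREER 1 or without K14CREER 2. With an InvCREER array left out, limma took the spread from the K14CREER arrays alone. For Tgfbr3 these were nearly equal, so that p-values of those fits are not given. A second, dim Tgfbr3 probe set was between 4.53 and 4.96 on the 4 arrays and was not tested.

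Tgfbr2 encodes the type II receptor of TGF-beta, which starts the kinase cascade. Its brightest probe set was at 9.99 and 10.19 in K14CREER and at 8.90 and 9.26 in InvCREER. The lines did not overlap, with InvCREER 1 the lowest of the 4 arrays. The difference was -1.01 (SE 0.21, limma adjusted p = 0.0960), and -0.71 (limma adjusted p = 0.134) as the mean of its probe sets. It was -0.83 without InvCREER 1, -1.19 without InvCREER 2, -1.11 without K14CREER 1 and -0.91 without K14CREER 2. Both other Tgfbr2 probe sets also had no overlap, with differences of -0.42 (limma adjusted p = 0.503) and, under the filter, -0.21.

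Tgfbr1 encodes the type I receptor that is paired with Tgfbr2. It was at 9.80 and 9.48 in K14CREER and at 9.04 and 9.18 in InvCREER on the 1 tested probe set of 3. The K14CREER arrays differed from each other by 0.33, more than the 0.30 between K14CREER 2 and InvCREER 2. The difference was -0.53 (SE 0.21, limma adjusted p = 0.333). Both dim Tgfbr1 probe sets overlapped between the lines.

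Bmpr1a, a type I receptor for Bmp2 and Bmp4, stood apart from the other receptor genes in its values. Its brightest probe set was at 10.14 and 10.42 in K14CREER and at 10.18 and 10.31 in InvCREER. Both InvCREER values lay between the K14CREER values. The difference was -0.03 (SE 0.18, limma adjusted p = 0.973), with a 95% interval of -0.47 to 0.40, whereas the interval of Bmp4 ran from -1.88 to -0.71. The difference between the 2 genes was itself not tested. The other 3 tested Bmpr1a probe sets gave 0.41, 0.16 and 0.38, with limma adjusted p from 0.637 to 0.902. On each of those 3 the lowest value was that of K14CREER 1, and without that array they gave 0.06, -0.16 and 0.10. Of the 2 dim, untested Bmpr1a probe sets, 1 had both InvCREER arrays below both K14CREER arrays, at -0.49, and the other overlapped, at -0.10. Of the 3 genes with more than 1 tested probe set, Tgfb2, Tgfbr2 and Bmpr1a, the last was the 1 whose tested probe sets differed in sign.

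Smad3 encodes a receptor-regulated Smad that carries TGF-beta signals. It was at 8.89 and 8.70 in K14CREER and at 8.08 and 7.98 in InvCREER on the tested probe set. The lines did not overlap, and the arrays of a line were 0.20 and 0.10 apart. The difference was -0.77 (SE 0.22, limma adjusted p = 0.174). Of the 2 dim Smad3 probe sets, 1 had no overlap, at -0.69, and the other overlapped, at -0.16.

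**Figure D2:**
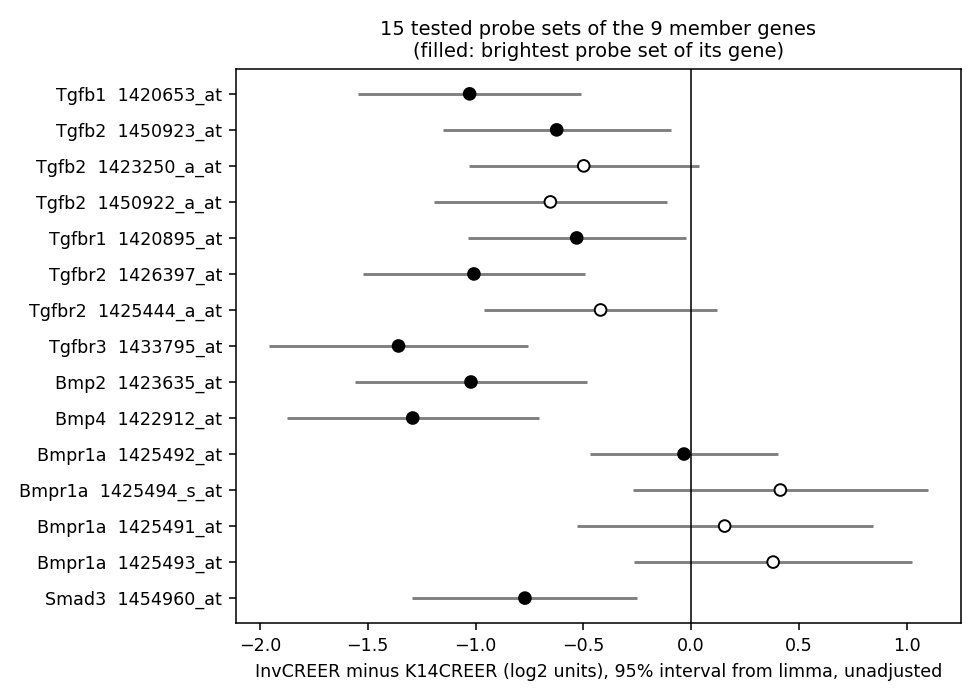
Difference InvCREER minus K14CREER in log2 units (x axis) for each of the 15 tested probe sets (y axis; filled points are the brightest probe set of a gene, and bars are 95% intervals from limma, not adjusted for multiple tests). The 11 probe sets of genes other than Bmpr1a have negative differences, from -1.36 to -0.42, while the 4 of Bmpr1a lie from -0.03 to 0.41.

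Counted over all 25 probe sets, 16 had both InvCREER arrays below both K14CREER arrays, 2 had them above, and 7 overlapped. Over all 45037 probe sets 21.0% lay below in this way and 17.5% above. Of the 15 tested probe sets, 11 lay below, against 22.1% of all tested probe sets, 2 lay above, against 20%, and 9 had an unadjusted p under 0.05 in that direction, against 7.35%. Both that lay above were of Bmpr1a. For 2 of the 15, those of Tgfb1 and the second of Tgfbr2, the InvCREER mean was under the filter, so that they passed it through K14CREER. The genes were chosen with earlier results of these data known, and probe sets of a gene share its transcripts, so that these counts are descriptions. In bulk RNA, fewer cells that express a gene and less RNA per cell cannot be told apart.

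Without InvCREER 1 the differences were -1.70 for Tgfbr3, -1.25 for Bmp4, -1.0004 for Tgfb1, -0.93 for Bmp2, -0.83 for Tgfbr2, -0.82 for Smad3, -0.61 for Tgfb2, -0.46 for Tgfbr1 and 0.03 for Bmpr1a. The spread in that fit came from the K14CREER arrays alone, so that no calls are given.

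With 1 probe set per gene, which left 11270 tests, 5 of the 9 genes passed: Bmp4 (limma adjusted p = 0.0264), Tgfbr3 (0.0271), Tgfb1 (0.0329), Tgfbr2 (0.0431) and Bmp2 (0.0432). Of these, Tgfb1 passed the filter through its K14CREER values, so that its call supports nothing, which leaves 4. In that setting 4.89% of all genes passed, and 2.21% passed with a lower level in InvCREER. Tgfb2, Tgfbr1 and Smad3 passed in none of the alternatives run, and neither did Bmpr1a.

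**Figure D3:**
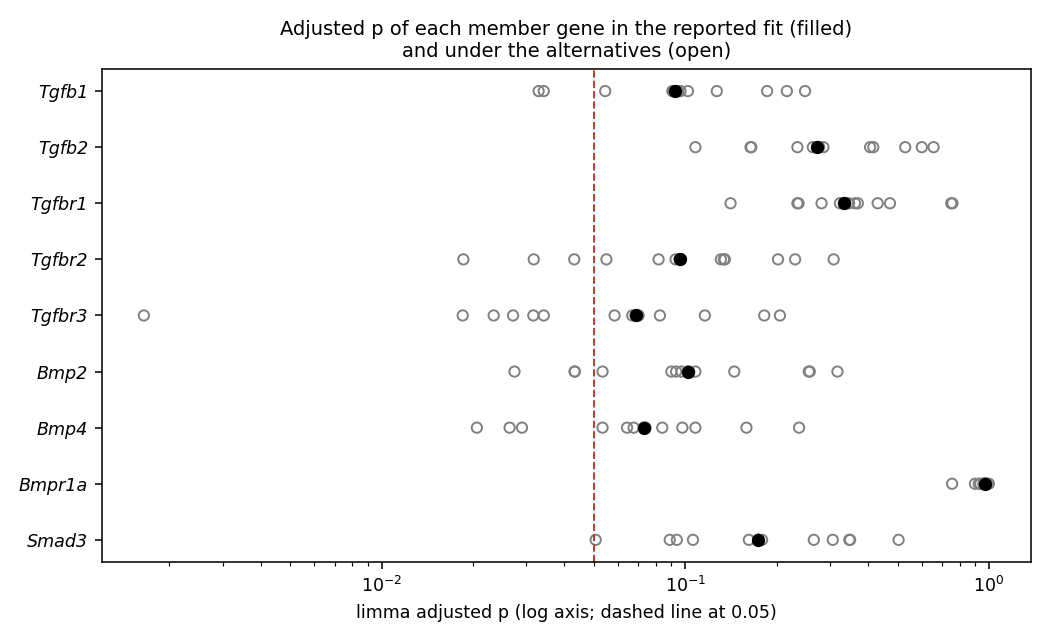
Adjusted p from limma (x axis, log scale, dashed line at 0.05) for each of the 9 genes (y axis) in the reported fit (filled) and in each alternative that kept the threshold (open). Points of Tgfbr3, Bmp4, Tgfb1, Tgfbr2 and Bmp2 lie on both sides of the line, while all values of Bmpr1a are at 0.756 or above. Tgfb1 was tested through its K14CREER values. In alternatives that left out an array the spread came from the other line alone.

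Other genes of the pathway were read from lists ordered by role, which held 89 genes. A probe set was found for 82 and 61 were tested. Of the 61, 2 rose and 1 fell, where 0.958% and 0.373% of all 11270 tested genes did. Their median difference was -0.12, against -0.01 over all tested genes and -1.01 over the 9. All 3 called genes were in the list of TGF-beta targets. Cdkn2b, which encodes the cell cycle inhibitor p15, rose from 6.97 and 6.72 to 9.15 and 9.53 (difference 2.49, SE 0.25, limma adjusted p = 0.0153). Cdkn1a, which encodes p21 and also responds to p53, rose from 9.34 and 9.29 to 11.58 and 11.50 (2.22, SE 0.16, limma adjusted p = 0.00663). Snai2, a transcriptional repressor of basal keratinocytes, fell from 11.89 and 11.78 to 10.76 and 10.51 (-1.20, SE 0.15, limma adjusted p = 0.0290). The Snai2 call was lost without the variance trend (limma adjusted p = 0.0844). It was also lost without _s_at and _x_at probe sets, which dropped the called _x_at probe set and left another (-1.25, limma adjusted p = 0.0568). With 1 array left out the Snai2 difference was -1.15 without K14CREER 1 and -1.25 without K14CREER 2. It was -1.32 without InvCREER 1 and -1.08 without InvCREER 2. Calls of those fits are not given.

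The other tested targets of TGF-beta were not called, and the median of the 10 was 0.11. Tgfbi, a secreted matrix protein, was at -0.52 (limma adjusted p = 0.0801) and Col7a1, the collagen of anchoring fibrils, at -0.83 (limma adjusted p = 0.0700). Ccn2, a matricellular protein, was at 0.11 and varied most within a line, from 6.08 to 7.98 in K14CREER. The list thus held values in both directions. Of 8 tested BMP targets limma called 0, with 1 (Id4) lower at an unadjusted p under 0.05, and the median was -0.11. Of all 11270 tested genes 8.54% were lower and 7.58% higher at that unadjusted p. The inhibitors of differentiation Id4 and Id3 were at -1.06 (limma adjusted p = 0.182) and -0.48, whereas Id1 was at 0.39. Id4 had means of 8.78 in K14CREER and 7.72 in InvCREER with no overlap, while Id1, Id2 and Id3 overlapped.

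None of the other ligands, receptors and Smads passed the limma test, and 1 of these 18 genes (Bmp1) was lower at an unadjusted p under 0.05, against the 8.54% of all genes. Of 6 other ligands tested, 4 had higher means in InvCREER and the median was 0.18. Bmp1, a protease that shares the BMP name and processes procollagen, was at -0.57, and Bmp7 was at 0.56. Bmp7 was at 8.11 and 8.01 in K14CREER and at 8.82 and 8.43 in InvCREER, the opposite order to Bmp2 and Bmp4 (limma adjusted p = 0.373). The third TGF-beta gene, Tgfb3, was under the filter, at 5.80 on InvCREER 1 and between 4.32 and 4.90 elsewhere. Of 6 other receptors the median was -0.07. The activin receptor genes Acvr2b and Acvr1b were at -0.66 and 0.43, and Bmpr2, the type II partner of Bmpr1a, was at -0.03. Of 6 other Smads the median was -0.18, with the inhibitory Smad7 at -0.44 and the BMP-activated Smad5 at -0.41. Smad2 overlapped, at 9.41 and 9.74 in K14CREER and at 9.38 and 9.64 in InvCREER (-0.06, limma adjusted p = 0.958).

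Further lists held genes for proteins that store, activate or block the ligands. Of 8 tested genes of latency and activation 7 had lower means, against 51.8% of all tested genes, and the median was -0.48. Of these 8 limma called 0, with 4 lower and 1 higher (Itgb8) at an unadjusted p under 0.05, against 8.54% and 7.58% of all genes. Itgb6, 1 of the 4, had means of 6.11 in K14CREER and 5.01 in InvCREER, the second under the filter. It thus passed the filter through its K14CREER values, and its place in these counts supports nothing. Thbs1, an activator of latent TGF-beta, was at 6.96 and 8.12 in K14CREER and at 6.25 and 6.16 in InvCREER (-1.34, limma adjusted p = 0.192). The latent TGF-beta binding protein gene Ltbp4 was at -1.19 (limma adjusted p = 0.0751). Of the 3 subunits of integrins that release TGF-beta, Itgav was at -0.53 (limma adjusted p = 0.159), Itgb6 at -1.09 (limma adjusted p = 0.0886) and Itgb8 at 1.56 (limma adjusted p = 0.290). Itgb8 was at 8.14 on InvCREER 1 and 6.28 on InvCREER 2, and at 5.67 and 5.64 in K14CREER. Among 5 tested extracellular antagonists 3 had lower and 2 higher means (Fstl3 at 0.49 and Twsg1 at 0.05), and limma called 0, with 2 lower at an unadjusted p under 0.05. The activin antagonist Fst was at -1.31 (limma adjusted p = 0.243) and the decoy receptor Bambi at -0.93 (limma adjusted p = 0.272). Of the Fst values that of K14CREER 1, 8.02, stood above the other 3, at 6.04 to 6.70. Among 12 intracellular regulators limma also called 0, with 2 lower at an unadjusted p under 0.05, against the same 8.54%. The co-repressor genes Tgif1 and Tgif2 were at -0.96 (limma adjusted p = 0.122) and -0.82 (limma adjusted p = 0.169), with a list median of -0.19.

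**Figure D4:**
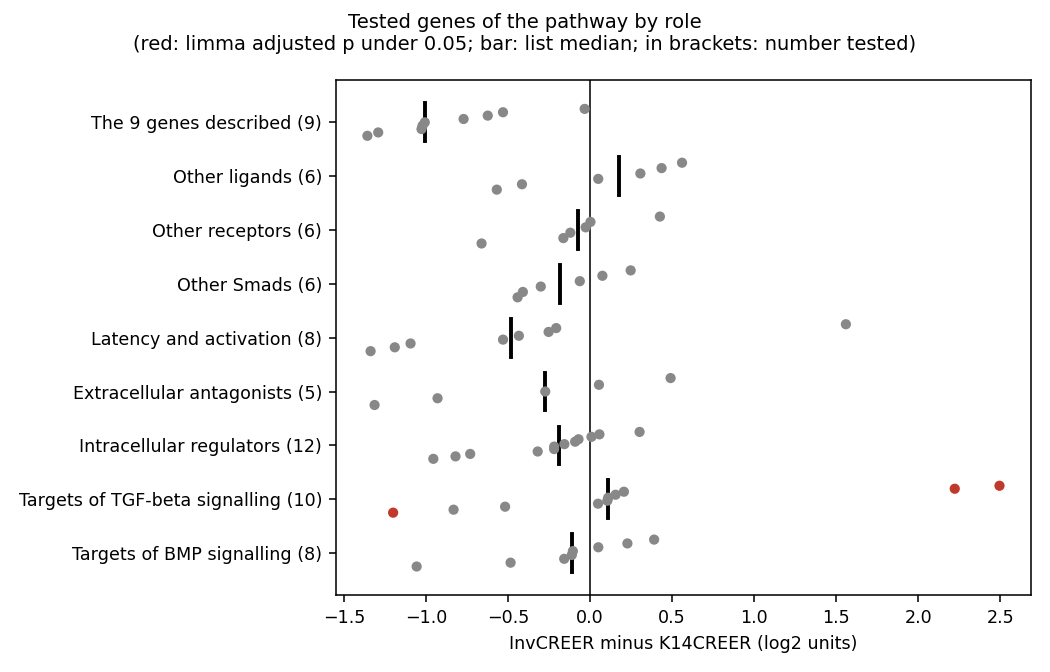
Difference InvCREER minus K14CREER in log2 units (x axis) for the tested genes of each list (y axis; points are genes on their brightest probe set, red where called by limma, and bars are list medians). The 9 genes described have a median of -1.01, the other lists have medians from -0.48 to 0.18, and the 3 called genes are all TGF-beta targets.

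The genes whose pattern over the 4 arrays was closest were found for Tgfbr3 and Bmp4, as the 3 smallest root mean square distances between centred log2 values among 11270 genes. For Tgfbr3 they were Arhgap25 (0.02 log2 units), Flot2 (0.05) and Gpr146 (0.06). For Bmp4 they were Bnc1, a basal keratinocyte transcription factor (0.03), Zkscan17 (0.05) and the Wnt ligand gene Wnt5b (0.05). With 4 arrays many genes can lie this close.

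Markers of the sorted cells and of several other cell types also differed between the lines. All 8 basal keratinocyte markers had lower values in InvCREER with no overlap, and Krt15 was the 1 called. Of all tested genes 24.1% lay lower and 21.3% higher with no overlap, and 0.373% fell and 0.958% rose. The list mean was 12.83 and 12.74 on the K14CREER arrays and 12.15 and 11.99 on the InvCREER arrays. Of 7 tested suprabasal markers 6 rose, with a list mean of 8.41 and 8.74 in K14CREER and of 9.67 and 9.98 in InvCREER. Lor was tested and overlapped, and Ivl and Flg were under the filter and overlapped. Ivl, the involucrin gene, was at 4.58 and 6.23 in K14CREER and at 4.78 and 5.06 in InvCREER. Sebaceous gland markers lay higher with no overlap in 9 of 9 tested, their list mean being 7.93 and 7.38 for K14CREER and 10.76 and 9.09 for InvCREER. Langerhans and myeloid markers did so in 6 of 6 tested, with means of 5.31 and 5.08, then 7.14 and 5.87. Of these tested markers Scd3, Pparg, Cd207 and Ctss had K14CREER means under the filter and passed it through InvCREER, so that their direction supports nothing. Of the untested Langerhans and myeloid markers, Tyrobp and Lyz2 lay higher with no overlap, while Ptprc and Fcer1g overlapped. Of 6 tested hair follicle markers 3 had lower and 3 higher means, and Lgr6 was the 1 called (-1.79, limma adjusted p = 0.0292). Of the T cell, endothelial, melanocyte and Merkel markers 2, 1, 3 and 1 were tested, and limma called 0. Dermal fibroblast markers, of cells known to express several of the 9 genes, had means of 6.41 and 5.87 in K14CREER and of 5.61 and 5.53 in InvCREER. Of those 12 markers 4 of the 5 tested had lower means and Sparc fell, while Col1a1, Col3a1, Pdgfra, Pdgfrb, Lum, Dpt and Twist2 were under the filter. Of the 5, Sparc (-2.36) and Dcn (-1.87) lay lower with no overlap, and Fbln1, Col6a1 and Col1a2 overlapped. Under the filter, Col1a1 and Pdgfra lay lower with no overlap, Pdgfrb and Dpt lay higher with no overlap, and Col3a1, Lum and Twist2 overlapped. K14CREER 1 stood apart in some markers. Cd34 was at 6.07 there and at 3.59 to 3.88 elsewhere, and Col3a1 at 6.12 against 3.73 to 4.43. The Merkel markers Krt8 and Krt18 were at 7.44 and 7.69 there, against 5.08 to 5.34 and 4.20 to 4.40. Krt20 and Atoh1, also Merkel markers, were at 4.49 and 4.45 there, against 3.98 to 4.30 and 4.11 to 4.70. The log2 ratio of 3' to 5' Actb probe sets, a sign of RNA quality, was 0.94 and 0.68 for the K14CREER arrays and 1.24 and 0.77 for the InvCREER arrays. For Gapdh it was 0.33 and 0.07 for K14CREER and 0.74 and 0.05 for InvCREER. InvCREER 1 was the highest in both ratios, and InvCREER 2 the lowest in that of Gapdh. The part of these cell types and of RNA quality in the differences of the 9 genes was not tested.

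**Figure D5:**
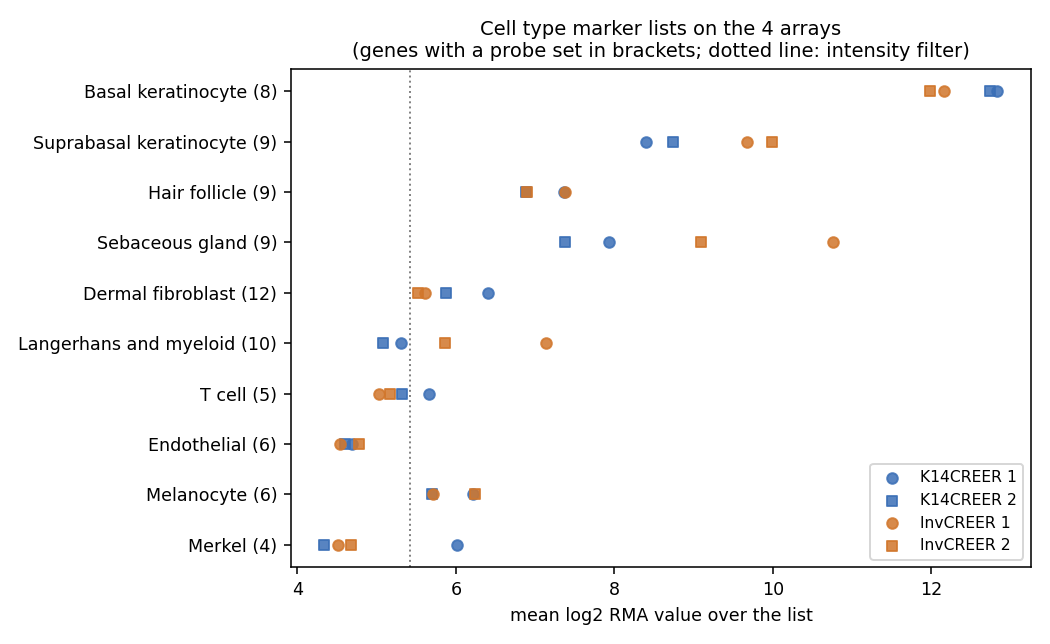
Mean log2 RMA value of each cell type marker list (x axis) on the 4 arrays (blue K14CREER, orange InvCREER; circles array 1, squares array 2) by list (y axis), to be read within a list. The list means of basal and dermal fibroblast markers lie lower in InvCREER, though of the tested fibroblast markers only Sparc and Dcn did not overlap. Those of suprabasal, sebaceous and Langerhans markers lie higher, with InvCREER 1 highest for the last 2 at 10.76 and 7.14.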

How the data were processed

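Each array was made from 100 ng of total RNA with a 3' IVT kit, per the labels' protocols. The authors deposited log2 values from RMA, computed in Affymetrix Expression Console 1.1 as the submitters' processing notes state. Array medians were 5.41 to 5.44. RMA equalises the distributions of the arrays, so that a shift in total RNA is invisible. The number of arrays limits the precision.

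Of 45101 probe sets 64 controls were removed, and the 22519 with a mean at or above the median (5.42) were tested. Symbols came from the platform annotation and RefSeq gene numbers, and names on the lists that had no probe set were looked up among RefSeq synonyms. The lines were compared by limma 3.58.1 under R 4.3.3, using lmFit and eBayes with the trend option, 2-sided, without a block, and called at a Benjamini-Hochberg adjusted p under 0.05. The fit was tested on simulated data. Genes named are the 9, and from each pathway list the called genes, the 2 with the largest absolute difference and the genes nearest in pattern to 2 of the 9. The genes Tgfbi, Col7a1, Ccn2, Id1, Id2, Tgfb3, Bmpr2, Smad2, Ltbp4, Itgav, Itgb6, Fstl3, Twsg1, Xist and Eif2s3y were added after their values were seen. So were the markers Lgr6, Cd34, Krt8, Krt18, Krt20 and Atoh1. The 9 genes and the lists were chosen with earlier results of these data known. Alternatives changed the intensity filter, the scaling, the weights of arrays, the variance model, the block, the threshold and the unit or kind of probe set, and left out each array in turn. With 1 array left out, limma takes the spread of its line from the other.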

Additional observations from a re-analysis of the deposited data

How the results depend on the processing

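The number of the 15 tested probe sets of the 9 genes that were called, 0, was 1 at the stricter filter (the upper quartile), 4 at a threshold of 0.10, 5 with 1 probe set per gene and 4 with the mean of the probe sets of a gene, and ran from 0 to 2 when 1 array was left out. The count over the other pathway genes, 3, was 5, 7, 7 and 6 in those settings and ran from 2 to 7. The count over all probe sets, 216, was 405, 692, 551 and 450 and ran from 82 to 981, and was 122 without the variance trend. With the array number as a replicate block the counts were 4 for the 9 genes, 8 for the other pathway genes and 1390 over all probe sets. Not every setting tested 15 probe sets of the 9 genes. The stricter filter tested 9 of them, 36 other pathway genes and 11260 probe sets in all. Both settings with 1 value per gene tested 9, 61 and 11270. The threshold of 0.10 and the block kept 15, 61 and 22519. Among those called at 0.10 and in both settings with 1 value per gene was Tgfb1, whose call supports nothing. Same-numbered arrays deviated together at r = 0.38 over tested probe sets, but 2 pairs that share only a number do not establish a pairing. The median absolute difference between K14CREER 2 and InvCREER 2 was 0.23 log2 units, and 0.25 between the arrays of either line. It was 0.28 to 0.34 for other pairs across the lines. By correlation the arrays of a line were closer, at 0.97 in each line against 0.96 for K14CREER 2 and InvCREER 2. The 3 counts stayed within 1.5 times under array weights, a common median, quantile normalisation, no filter and without _s_at and _x_at probe sets. Bmpr1a, which was not called, changed sign to 0.23 with the mean of its probe sets, 0.10 without K14CREER 2 and 0.03 without InvCREER 1, and ran from -0.17 to 0.10 over the arrays left out. The differences of the 8 other genes stayed negative in every alternative run, of which the stricter filter left out Tgfb1, Tgfb2 and Bmp4.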
